A study of Mus musculus with 4 samples.

Results

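Carboxylesterases are serine hydrolases of the endoplasmic reticulum that cleave ester, amide and thioester bonds. They act on acylglycerols and cholesteryl esters as well as on ester drugs, and the mouse genes of the Ces1 and Ces2 groups are known chiefly from liver, intestine, kidney and adipose tissue. Skeletal muscle is not a tissue in which most of them are studied. The members described here are 10 genes, Ces1d, Ces1f, Ces1g, Ces2a, Ces2b, Ces2c, Ces2e, Ces2f, Ces2g and Ces2h, found by their symbols among the 51826 genes listed in the count table. They were selected on the counts of these same libraries, in which Ces2c had the lowest log2 fold change of all genes tested between the genotypes. The differences between the genotypes are therefore given as descriptions, with no p-value for a member.

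The study asked which transcripts differ in muscle when the muscle-specific α2 exon of Mef2d, a MADS-box transcription factor, is absent. RNA came from the quadriceps of sedentary male mice at 20 weeks of age, 2 wild-type (WT) and 2 Mef2dα2 Eko littermates, with a separate library for every animal. The Mef2dα2 Eko mice lack the exon in every tissue, since it was removed in the germline with CRISPR-Cas9, and both genotypes share the C57BL6/J background. The founder line of the sequenced mice is not given in the sources used here. Total expected counts ran from 72626757 to 85176059 per library, so that 1 count equalled 0.0116 to 0.0140 CPM, the unit of level used throughout, which scales counts to library size. The smallest level read as present, 3 counts in a library, was 0.0348 to 0.0420 CPM. Mef2d itself had 19687 and 18393 counts in WT mice and 21695 and 17206 in Mef2dα2 Eko mice, and counts per gene do not separate the α2 exon. Markers of skeletal myofibres summed to between 140000 and 147800 CPM in all 4 mice.

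The members lie in 2 clusters on chromosome 8 of GRCm38. Ces1d, Ces1f and Ces1g belong to a minus-strand cluster of 8 genes (chr8:93020214-93379725), and the 7 Ces2 members belong to a plus-strand cluster of 8 genes (chr8:104734003-105021178), 11354.3 kb away. Ces2c (ENSMUSG00000061825.10, chr8:104847068-104854483) starts 6974 bases after the end of Ces2b (ENSMUSG00000050097.6, chr8:104831572-104840093). Ces1d (ENSMUSG00000056973.6) spans chr8:93166068-93197838. No member overlaps a gene on the other strand in GENCODE M21.

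Of the 10 members, 5 had enough counts to be fitted and 5 were at or under 3 counts in every library. Ces2a, a liver acylglycerol hydrolase, had 0 counts in all 4 libraries, as had Ces2f and Ces2h, which allows up to the level of 3 counts, 0.0348 to 0.0420 CPM, in each library. Ces1g, a liver enzyme whose loss raises lipid secretion by that organ, had a single count, 1 in WT replicate 1, and 0 elsewhere. Ces2e, named for its hydrolysis of pyrethroids, had 0 and 1 counts in WT mice and 2 counts in each Mef2dα2 Eko mouse. No difference between the genotypes was detectable for these 5 genes at this depth.

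Ces1d was the only abundant member, and it was higher in the Mef2dα2 Eko mice. This gene encodes a triacylglycerol hydrolase that mobilises stored fat in liver and adipose tissue. It had 1243 and 1743 counts in WT replicates 1 and 2, and 2571 and 2378 counts in Mef2dα2 Eko replicates 1 and 2. Both Mef2dα2 Eko mice lay above both WT mice, and the WT mice differed from each other more than the Mef2dα2 Eko mice did. The level was 19.0 CPM ± 3.66 (SD, n = 2) in WT mice and 31.5 CPM ± 2.42 (SD, n = 2) in Mef2dα2 Eko mice, a ratio of means of 1.66. The log2 fold change, Mef2dα2 Eko over WT, was 0.73 with a standard error of 0.13, which placed the gene at rank 317 of 16120 from the highest. By its mean level over the 4 mice Ces1d stood at the 77.1 percentile of the genes tested, against 18.6 for Ces2c.

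Ces2c was lower in both Mef2dα2 Eko mice by more than an order of magnitude. Ces2c is an acylglycerol hydrolase known from the intestine and the liver. WT replicates 1 and 2 both held 85 counts, whereas Mef2dα2 Eko replicates 1 and 2 held 4 and 5, so the genotypes did not overlap. Exact 95% Poisson intervals, which cover counting error only, ran from 67.9 to 105.1 counts for each WT library, from 1.09 to 10.2 for Mef2dα2 Eko replicate 1 and from 1.62 to 11.7 for Mef2dα2 Eko replicate 2. The level was 1.09 CPM ± 0.0488 (SD, n = 2) in WT mice and 0.0582 CPM ± 0.0166 (SD, n = 2) in Mef2dα2 Eko mice, which is above the level of 3 counts in both. Summed over libraries, the counts of the Mef2dα2 Eko mice were 5.26% of those of the WT mice after allowing for library size, with a counting interval of 2.37% to 10.2%. The log2 fold change was -4.21 with a standard error of 0.41.

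Ces2b, the neighbour of Ces2c, was lower in the Mef2dα2 Eko mice as well, at a lower level. It had 15 and 27 counts in WT mice and 3 and 0 counts in Mef2dα2 Eko mice. The genotypes did not overlap. The level was 0.266 CPM ± 0.0963 (SD, n = 2) in WT mice, and in Mef2dα2 Eko mice it was 0.0174 CPM ± 0.0246 (SD, n = 2), which is under the level of 3 counts. The ratio of the summed counts, 3 over 42 after allowing for library size, was 0.0710 with a counting interval of 0.0141 to 0.222. The fitted log2 fold change of -3.72 (standard error 0.90) depends on the prior count added to low values. It was -7.35 without Mef2dα2 Eko replicate 1, where the other Mef2dα2 Eko library is at 0, and -2.88 without Mef2dα2 Eko replicate 2.

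Ces2g did not separate the genotypes. It had 30 and 43 counts in WT mice and 12 and 33 counts in Mef2dα2 Eko mice, so Mef2dα2 Eko replicate 2 lay between the WT mice. The level was 0.464 CPM ± 0.0964 (SD, n = 2) in WT mice and 0.300 CPM ± 0.228 (SD, n = 2) in Mef2dα2 Eko mice. The log2 fold change of -0.65 (standard error 0.57) rested on Mef2dα2 Eko replicate 1, since it was 0.005 without that mouse and -1.73 without Mef2dα2 Eko replicate 2.

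Ces1f, a second Ces1 member known from liver, ran opposite to Ces1d. It had 33 and 15 counts in WT mice and 11 and 7 counts in Mef2dα2 Eko mice. The Mef2dα2 Eko mice lay below both WT mice, close to WT replicate 2. The log2 fold change was -1.43 (standard error 0.60), and it was -0.70 without WT replicate 1. The level was 0.310 CPM ± 0.176 (SD, n = 2) in WT mice and 0.113 CPM ± 0.0210 (SD, n = 2) in Mef2dα2 Eko mice.

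**Figure D1:**
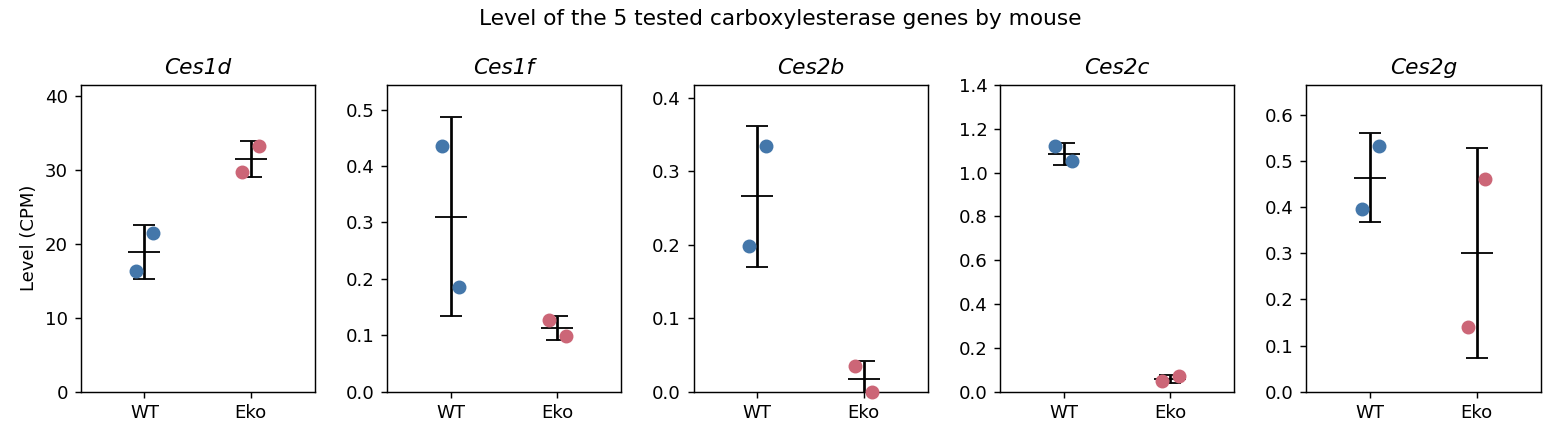
Level in CPM (linear axes from 0, a separate scale for each gene) of the 5 fitted members, with 1 point per mouse, WT in blue and Mef2dα2 Eko in red, and horizontal and vertical bars for the mean and SD of 2 mice. Ces1d lies near 19.0 and 31.5 CPM, Ces2c near 1.09 and 0.0582 CPM, and the Mef2dα2 Eko mice of Ces2g straddle the lower WT mouse.

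Among all 16120 genes tested, 67 (0.416%) passed an adjusted p of 0.05 in edgeR's quasi-likelihood test, 50 of them lower (0.31%) and 17 higher (0.105%) in Mef2dα2 Eko mice. The number that passed was 23 to 799 under the other settings. An unadjusted p under 0.05 was held by 1864 genes (11.6%). Of the 5 fitted members 1, Ces2c, was among the lower genes, a count that the choice of the members already contains. The count of members was 1 to 3 under the other settings. Both Mef2dα2 Eko mice lay below both WT mice in 3 of the 5 fitted members, against 23% of all genes tested, and above them in 1, against 20.8%. Taken in either direction these were 4 of 5 fitted members, against 43.8% of all genes tested. Ces2b and Ces2c passed the filter on low counts through their WT libraries alone. The median log2 fold change was -1.43 over the 5 fitted members, the value of Ces1f, and -0.01 over all genes tested. The choice of the members bears on this median and on the counts of members without overlap as well, so they are descriptions only. With 2 mice per genotype, a p-value measures the spread between these mice only.

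The make-up of the family differed between the genotypes within each library. For each Ces2c count there were 14.6 and 20.5 Ces1d counts in the WT mice, but 642.8 and 475.6 in the Mef2dα2 Eko mice. Ces1d made up 88.3% and 91.1% of all member counts in WT mice and 98.8% and 98.1% in Mef2dα2 Eko mice. Within the Ces2 group, Ces2c gave 65.4% and 54.5% of the counts in WT mice and 19.1% and 12.5% in Mef2dα2 Eko mice. Ces2g was the leading Ces2 gene in the Mef2dα2 Eko mice, with 57.1% and 82.5% of the counts. Per kilobase of exon, which allows levels to be compared between genes, Ces1d stood at 8.01 CPM and Ces2c at 0.473 CPM in WT mice, followed by Ces2g at 0.130, Ces1f at 0.0944 and Ces2b at 0.0780 CPM. In Mef2dα2 Eko mice the order per kilobase was Ces1d at 13.3 CPM, Ces2g at 0.0840, Ces1f at 0.0343, Ces2c at 0.0253 and Ces2b at 0.00511 CPM. Neighbours in this order overlapped between mice for Ces2g with Ces1f and Ces1f with Ces2b in WT, and for Ces1f with Ces2c in Mef2dα2 Eko.

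Sums over a group do not depend on how reads are divided among its genes. The 7 Ces2 members together had 130 and 156 counts in WT mice and 21 and 40 counts in Mef2dα2 Eko mice. Their summed level was 1.82 CPM ± 0.153 (SD, n = 2) in WT mice and 0.401 CPM ± 0.223 (SD, n = 2) in Mef2dα2 Eko mice, a log2 ratio of -2.18. Entered as 1 gene in the fit across all genes, the Ces2 sum had a log2 fold change of -2.20 (standard error 0.38). It was not past the adjusted p of 0.05, which is a description only, since the members were chosen on these counts. Without Ces2c the sum was 0.736 CPM ± 0.202 (SD, n = 2) in WT and 0.343 CPM ± 0.207 (SD, n = 2) in Mef2dα2 Eko mice, a log2 ratio of -1.10. The 3 Ces1 members together stood at 19.3 CPM ± 3.47 (SD, n = 2) in WT mice and 31.7 CPM ± 2.40 (SD, n = 2) in Mef2dα2 Eko mice, a log2 ratio of 0.71. Since Ces1d outweighs the rest, the sum of all 10 members had a log2 ratio of 0.60.

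**Figure D2:**
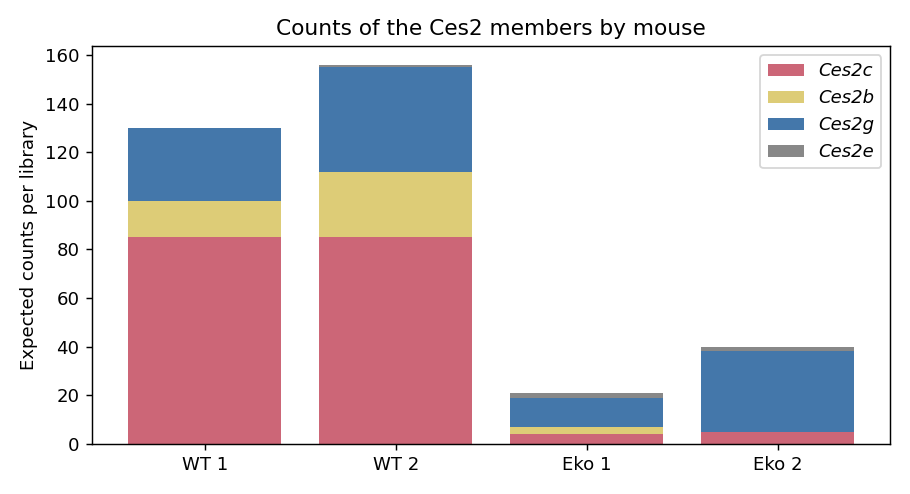
Expected counts (linear axis from 0) of the 4 detected Ces2 members in each of the 4 libraries, stacked by gene. The WT bars reach 130 and 156 counts and are mostly Ces2c, while the Mef2dα2 Eko bars reach 21 and 40 counts and are mostly Ces2g.

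RSEM, with which the authors counted, shares out a read that fits more than 1 gene by a probability model, so the likeness of the sequences bears on these values. Over the coding sequence, Ces2b and Ces2c were identical at 91.7% of aligned positions, the highest of the 21 Ces2 pairs, which ranged from 77.3%. The 3 Ces1 pairs ranged from 76.0% to 82.4%, and the 21 pairs between the clusters from 60.3% to 63.2%. The longest stretch that Ces2b and Ces2c share without a difference is 99 bases. It is printed in capitals with the 30 coding bases on either side in lower case, from coding bases 1097 to 1255 of Ces2b and 1112 to 1270 of Ces2c, since a read within it cannot be assigned to either gene. The flanks differ at 8 positions.
Ces2b: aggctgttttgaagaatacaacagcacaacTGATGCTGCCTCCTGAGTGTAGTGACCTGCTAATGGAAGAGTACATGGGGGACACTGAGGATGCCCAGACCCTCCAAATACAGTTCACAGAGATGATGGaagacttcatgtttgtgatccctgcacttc
Ces2c: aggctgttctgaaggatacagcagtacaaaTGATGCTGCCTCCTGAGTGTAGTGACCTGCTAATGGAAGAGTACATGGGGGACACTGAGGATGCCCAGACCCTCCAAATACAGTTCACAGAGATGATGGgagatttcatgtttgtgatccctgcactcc

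Windows of 75 bases from the annotated transcripts show how much of each gene is its own. All windows of Ces1d, Ces1f and Ces1g were found in no other gene. For Ces2b 98.4% of the windows and for Ces2g 99.4% were unique to the gene. Ces2c had the lowest share, 77.9% of its 2223 windows, and it shared 472 windows with the pseudogene Ces2d-ps, 246 with the pseudogene Gm8798, 80 with the pseudogene Gm6831 and 31 with Ces2b. Those 3 pseudogenes had 0 counts in all 4 libraries. Gm45909, a gene within the limits of Ces1d on the same strand (chr8:93190328-93191358), had 18 and 4 counts in WT mice and 37 and 6 in Mef2dα2 Eko mice, far below the counts of Ces1d.

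**Figure D3:**
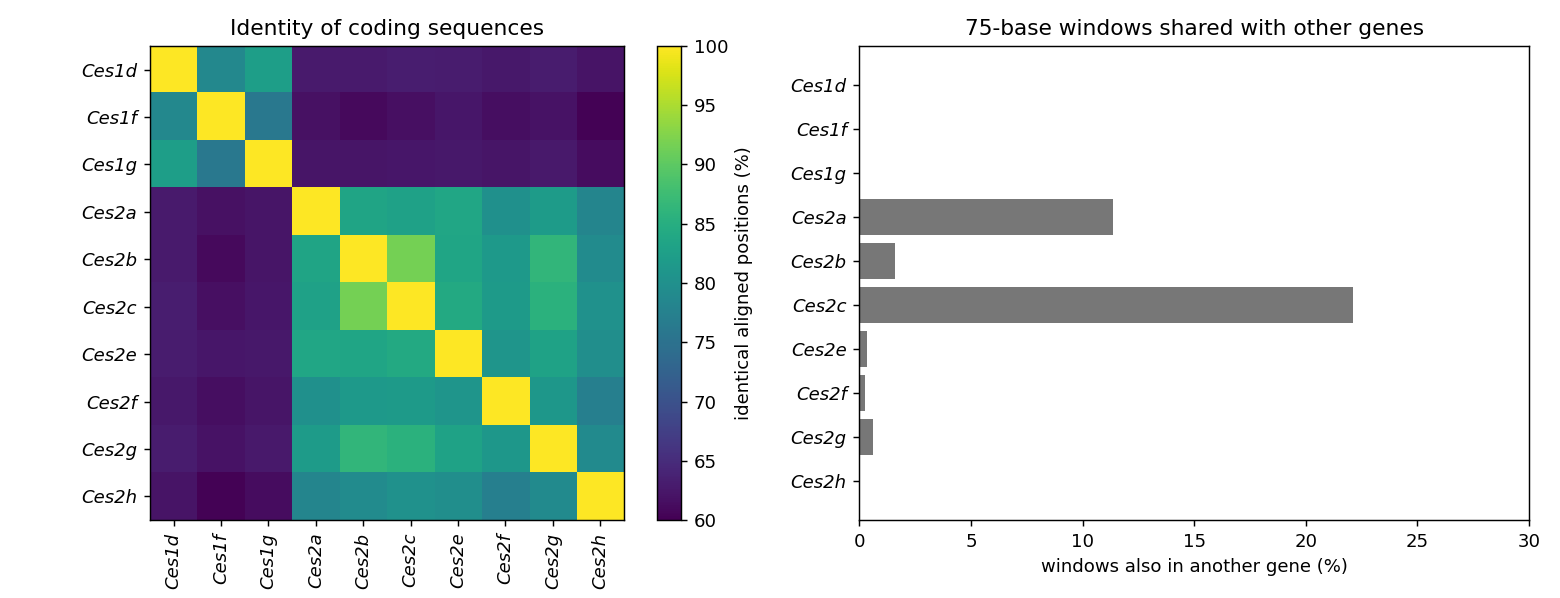
Left, identity of the coding sequences in % of aligned positions for each pair of the 10 members (colour scale from 60 to 100%). Right, share in % of each member's 75-base windows that also occur in another gene (axis from 0). The Ces2b and Ces2c pair is the most alike at 91.7%, and Ces2c has the largest share of windows found elsewhere.

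RefSeq promoters on GRCm38.p6, from 250 bases before to 50 bases after the start, were matched for 7 of the 10 members. Ces1d, Ces1f and Ces2b had no entry. The MEF2 motif, searched on both strands, was in 0 of the 7 promoters and in 3.19% of all 32851 promoters of the same length. The letters TATAAA, which may overlap that motif, were in 1 of the 7, that of Ces1g, and in 13.62% of all promoters. No match says only that these letters are not in this window. The 250 bases before the start of Ces2c (plus strand, chr8:104846818-104847067) and of Ces2g (plus strand, chr8:104961468-104961717) are printed because they are the only fitted members with an entry, 1 with and 1 without a separation of the genotypes. The sequences were identical at 59.4% of aligned positions, and their longest shared run of 13 bases is in capitals.
Ces2c: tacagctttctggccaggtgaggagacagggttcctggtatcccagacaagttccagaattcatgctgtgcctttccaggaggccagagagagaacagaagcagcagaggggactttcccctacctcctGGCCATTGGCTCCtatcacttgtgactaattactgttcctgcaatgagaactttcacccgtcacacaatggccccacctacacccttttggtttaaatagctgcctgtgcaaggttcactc
Ces2g: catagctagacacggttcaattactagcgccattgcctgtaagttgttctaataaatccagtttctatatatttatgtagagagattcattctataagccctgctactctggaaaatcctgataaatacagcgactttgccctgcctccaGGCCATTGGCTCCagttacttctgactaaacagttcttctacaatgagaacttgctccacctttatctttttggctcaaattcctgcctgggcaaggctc

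The other carboxylesterase genes of the mouse were nearly silent in quadriceps. Of 10 such genes, 8 had 0 counts in all 4 libraries, among them the remaining liver genes Ces1b and Ces1c and both Ces3 genes. Ces1e, which lies between Ces1d and Ces1f, had 10 and 19 counts in WT mice and 19 and 13 in Mef2dα2 Eko mice. On the log2 scale the difference was 0.13 ± 0.52 (standard error), with an adjusted p of 0.947 in edgeR's quasi-likelihood test. Ces5a had 4 and 1 counts in WT mice and 5 and 0 in Mef2dα2 Eko mice and was not tested. The list gave 0 calls at an adjusted p of 0.05 and 0 at an unadjusted p of 0.05 in edgeR's test, and 0 with DESeq2.

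Other enzymes that cleave esters of lipids, and the regulators of lipolysis, gave 1 gene past the test. Of 45 genes, 40 were tested, and their median log2 fold change was -0.14. In edgeR's quasi-likelihood test 0 rose and 1 fell, against 0.105% and 0.31% of all genes tested. An unadjusted p under 0.05 was held by 11 of the 40, against 11.6% of all genes tested. Both Mef2dα2 Eko mice lay below both WT mice in 20 of the 40, against 23% of all genes tested, and above them in 5, against 20.8%. The gene that fell was Nceh1, a neutral cholesterol ester hydrolase. It had 3093 and 2694 counts in WT mice and 1856 and 1518 in Mef2dα2 Eko mice, with no overlap. On the log2 scale the difference was -0.79 ± 0.10 (standard error), at an adjusted p of 0.0466. The number of genes of this list that passed was 0 with a minimum of 1 CPM in 2 libraries, 3 with DESeq2, 10 with no filter and 2 to 4 when 1 mouse was left out. Lpl, the lipoprotein lipase and the most abundant gene of the list, stood at 556.8 CPM ± 68.8 (SD, n = 2) in WT and 432.7 CPM ± 11.6 (SD, n = 2) in Mef2dα2 Eko mice, which is a difference on the log2 scale of -0.36 ± 0.10 (standard error) at an adjusted p of 0.238. Pon1, a lactonase made chiefly in liver, had 68 and 21 counts in WT mice and 10 and 7 in Mef2dα2 Eko mice, which is a difference on the log2 scale of -2.40 ± 0.68 (standard error) at an adjusted p of 0.270.

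Enzymes of drug metabolism, the other process in which carboxylesterases act, also gave 1 gene. Of 32 genes 29 were tested, with a median log2 fold change of 0.02. In edgeR's quasi-likelihood test 0 rose and 1 fell, against 0.105% and 0.31% of all genes tested. In that test 3 of the 29 had an unadjusted p under 0.05, against 11.6% of all genes tested. Both Mef2dα2 Eko mice lay below both WT mice in 7 of the 29, against 23%, and above them in 7, against 20.8%. Cbr2, a carbonyl reductase, fell from 18.9 CPM ± 1.50 (SD, n = 2) in WT mice to 8.44 CPM ± 0.224 (SD, n = 2) in Mef2dα2 Eko mice, which is a difference on the log2 scale of -1.16 ± 0.09 (standard error) at an adjusted p of 0.0271. Cyp2e1, a cytochrome P450 that oxidises ethanol, had 1456 and 409 counts in WT mice and 166 and 149 counts in Mef2dα2 Eko mice. The WT mice differed from each other by more than the nearer WT mouse differed from either Mef2dα2 Eko mouse, and the log2 fold change was -2.60 ± 0.57 (standard error) at an adjusted p of 0.177. Aldh1a1, which oxidises retinaldehyde, was the most abundant of the list and stood at 83.2 CPM ± 19.9 (SD, n = 2) in WT and 104.9 CPM ± 3.81 (SD, n = 2) in Mef2dα2 Eko mice (adjusted p = 0.454).

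Of 23 genes for nuclear receptors and other transcription factors known to act on carboxylesterase genes or included for the MEF2 family, 18 were tested. None passed an adjusted p of 0.05 in edgeR's quasi-likelihood test or in DESeq2, and 2 of the 18 had an unadjusted p under 0.05 in edgeR's, against 11.6% of all genes tested. Their median log2 fold change was -0.05. Mef2c, the most abundant, stood at 779.5 CPM ± 32.4 (SD, n = 2) in WT and 780.6 CPM ± 1.56 (SD, n = 2) in Mef2dα2 Eko mice. Cebpa, an adipocyte and liver factor, had the largest log2 fold change at -0.61 (standard error 0.24, adjusted p = 0.402), with 608 and 385 counts in WT mice and 380 and 283 in Mef2dα2 Eko mice.

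Markers of other cell types were measured beside the members, since in a bulk sample fewer cells of a type and less RNA per cell cannot be told apart. Hepatocyte markers were near 0, with 5 of 10 at 0 counts and a sum of 0.0527 to 0.0699 CPM per library, Ttr was at 0, and Alb, which defines that cell type, had 1 and 0 counts in WT mice and 2 and 4 in Mef2dα2 Eko mice. Of the enterocyte markers 7 of 8 are in the table, 5 of them had 0 counts, Fabp2 and Apoa4 included, and their sum was 0 to 0.0395 CPM. The adipocyte markers, Car3 included, summed to 683.4 and 411.8 CPM in WT mice and 425.7 and 571.1 CPM in Mef2dα2 Eko mice, where the genotypes overlapped. Without Car3, which muscle also expresses, the sum was 173.8 and 103.3 CPM in WT mice and 98.3 and 73.3 CPM in Mef2dα2 Eko mice. All 10 adipocyte markers were detected, 8 had a log2 fold change below 0, and the median was -1.08. In edgeR's test 5 of them had an unadjusted p under 0.05, against 11.6% of all genes tested, and 0 an adjusted one, and 0 had an adjusted one in DESeq2. Macrophage markers summed to 60.0 and 47.8 CPM in WT mice and 40.6 and 31.8 CPM in Mef2dα2 Eko mice, with 8 of 8 log2 fold changes below 0, of which 6 had an unadjusted p under 0.05, as had 11.6% of all genes tested, and 0 an adjusted one in edgeR's test, against 2 adjusted, C1qb and Lyz2, in DESeq2. The macrophage sum and the adipocyte sum without Car3 were thus lower in the Mef2dα2 Eko mice. With Car3 the adipocyte sum did not separate the genotypes, at a log2 ratio of -0.14. Of the fitted members, Ces2b, Ces2c and Ces1f were lower in Mef2dα2 Eko mice, Ces1d was higher and Ces2g overlapped. The part of cell content in these differences was not tested. Endothelial markers summed to 181.2 to 212.8 CPM and fibroblast markers to 301.2 to 383.1 CPM, and in both sums the genotypes overlapped. Of the 7 fibroblast markers, 6 had a log2 fold change below 0. In edgeR's test 3 had an unadjusted p under 0.05, against 11.6% of all genes tested, and 0 an adjusted one. In DESeq2 1 had an adjusted one, Col3a1. Both Mef2dα2 Eko mice lay below both WT mice in 4 of the 7, against 23% of all genes tested. The same held for 3 of the 10 adipocyte and 6 of the 8 macrophage markers. In each of these lists they lay above in 0, against 20.8% of all genes tested. Of the 8 myofibre markers 1, Myh1, a fast myosin heavy chain, passed in DESeq2 and 0 in edgeR's test. Myh1 stood at 4967 and 3984 CPM in WT mice and at 3476 and 3121 CPM in Mef2dα2 Eko mice.

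**Figure D4:**
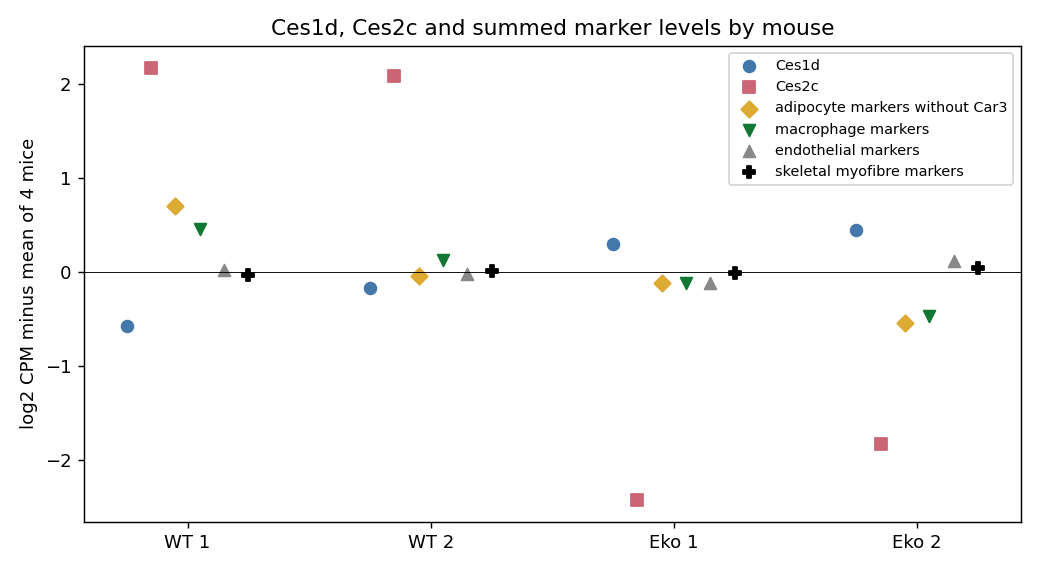
Log2 CPM of Ces1d, Ces2c and 4 summed marker lists in each mouse, as the difference from the mean over the 4 mice, with 1 symbol per quantity. Ces2c separates the genotypes by the widest gap, the adipocyte sum without Car3 and the macrophage sum run from high in WT replicate 1 to low in Mef2dα2 Eko replicate 2, and the myofibre sum stays near 0.

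The genes whose levels followed those of Ces1d and Ces2c most closely were found by the root mean square (RMS) distance of log2 CPM, centred on each gene's mean over the 4 libraries. For Ces1d these were Nipal2 at an RMS distance of 0.0206, Pcdhb18 at 0.0301, Myh13 at 0.0451, Wdhd1 at 0.0458 and Pcdhb22 at 0.0558, against a spread of Ces1d itself of 0.402. Among them, Myh13 encodes the myosin heavy chain of extraocular muscle and had 123 and 183 counts in WT mice and 249 and 244 in Mef2dα2 Eko mice. Nipal2 had only 5 and 7 counts in WT mice and 11 and 10 in Mef2dα2 Eko mice, so its distance is open to counting error. For Ces2c the nearest were farther away, Gm44956 at 0.484, 2210406O10Rik at 0.563, Acox2 at 0.795, Gpr132 at 0.911 and Igfn1 at 0.978, against its own spread of 2.06. Acox2, a peroxisomal oxidase of branched-chain acyl-CoAs, had 10 and 16 counts in WT mice and 2 and 1 counts in Mef2dα2 Eko mice. Igfn1, an immunoglobulin and fibronectin domain protein of skeletal muscle, was the only abundant one, with 6850 and 3642 counts in WT mice and 1056 and 1011 in Mef2dα2 Eko mice. These distances rest on 4 libraries and on the same contrast that chose the members.

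**Figure D5:**
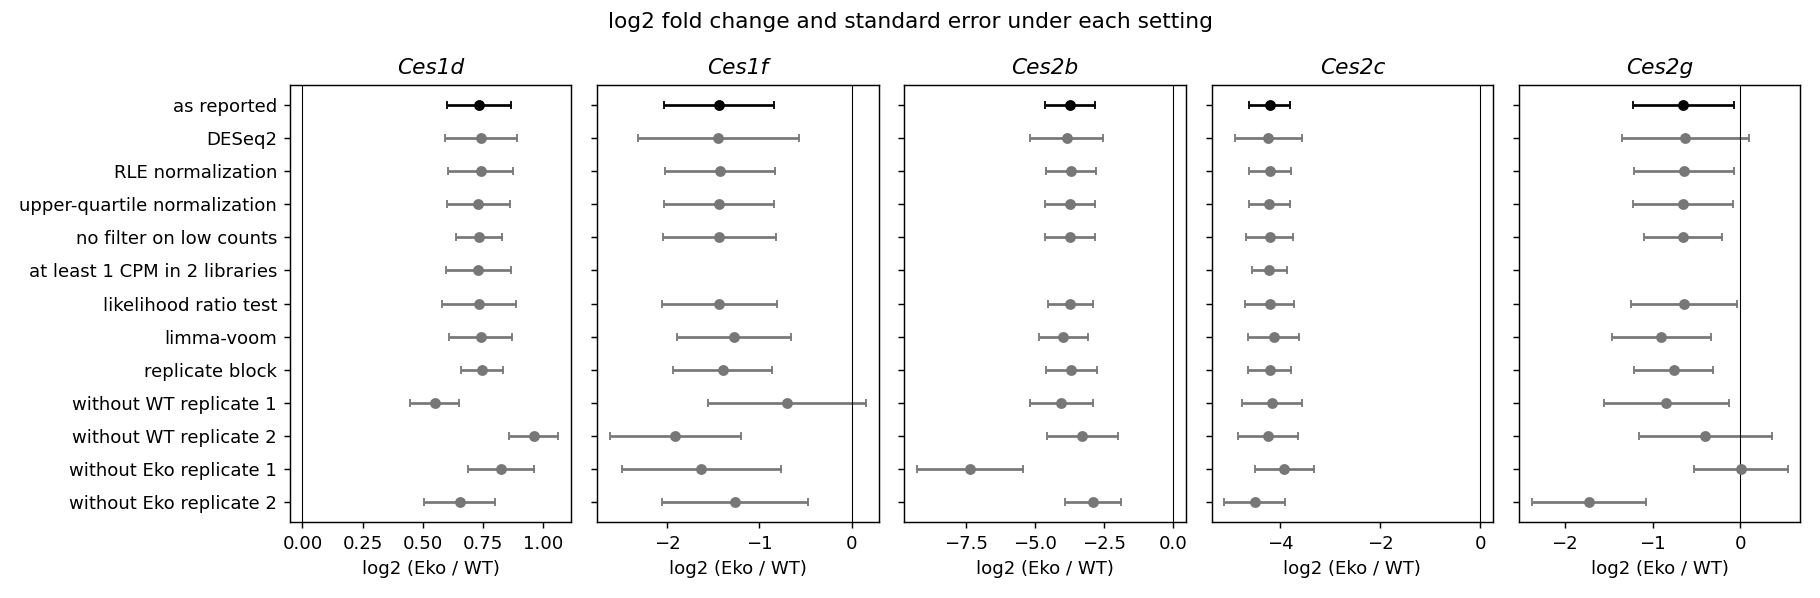
Log2 fold change (Mef2dα2 Eko over WT, linear axis, a separate scale for each gene) of the 5 fitted members with its standard error, as reported in black and under each other setting that fits the gene itself in grey. Ces2c stays between -4.50 and -3.91, Ces1d lies above 0 throughout, and Ces2g reaches 0.005 without Mef2dα2 Eko replicate 1.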

How the data were processed

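PolyA RNA of 4 quadriceps muscles, 2 WT and 2 Mef2dα2 Eko, was sequenced by the authors as 1 stranded library per mouse. The deposited values are expected counts per gene, which the authors estimated by RSEM on Ensembl gene models of GRCm38 after alignment to mm10, with no normalization. The submitters' processing notes name STAR 2.6.1a. The strand setting of the counting is not given in the sources used here. All values were whole numbers. Genotype and replicate number come from the sample labels.

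Counts were fitted in R 4.3.3 with edgeR 4.0.16, TMM scaling, the default filter on low counts (16120 of 24621 genes with any count kept), genotype as the sole term and a prior count of 0.125, and p-values of its quasi-likelihood test were adjusted over all genes tested by the Benjamini-Hochberg method. The step was tested on simulated data. The smallest difference between libraries of 1 genotype was 45.9 times counting noise (chi-square per degree of freedom), so no library was counted as a copy. With 2 mice per genotype an exact permutation test cannot go below p = 0.333, and none was run. Intervals and floors cover counting error only, with no term for the spread between mice. Reads carried no molecular identifiers.

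Positions, transcripts and windows come from GENCODE M21 on GRCm38, which is not the release the authors used, and coding sequences were aligned with edlib 1.3.9.post1. Promoters come from RefSeq. The members and all gene lists were chosen with earlier results of these data known. The text names all members, every other carboxylesterase gene with counts, in each list the genes past the threshold, the most abundant and the one with the largest change, Mef2d, and the 5 genes nearest in pattern to Ces1d and to Ces2c. Other genes were named after their values were seen. Alternatives were DESeq2 1.42.0, RLE and upper-quartile scaling, no filter, at least 1 CPM in 2 libraries, the likelihood ratio test, voom of limma 3.58.1, the replicate number as a block, summed Ces2 genes, and leaving out each mouse. The DESeq2 and voom calls of the cell type markers were added after the data were seen. No protein sequences were used here.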

Additional observations from a re-analysis of the deposited data

How the results depend on the processing

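The log2 fold change of Ces2c kept its direction under the 12 alternatives that fit the gene itself, and ran from -4.50 to -3.91 when 1 mouse was left out. With the Ces2 genes summed before the fit, that of the sum was -2.20 (standard error 0.38). The sum was not past the threshold, a description only, since the members were chosen on these counts. The log2 ratio of the summed Ces1 members ran from 0.54 to 0.93 and that of the Ces2 members from -2.90 to -1.69 when 1 mouse was left out. Ces2g changed sign, to 0.005, without Mef2dα2 Eko replicate 1, and its lowest value was -1.73 without Mef2dα2 Eko replicate 2. With at least 1 CPM in 2 libraries, Ces1d and Ces2c were still fitted, but Ces1f, Ces2b and Ces2g were not. Nor was any carboxylesterase gene outside the members.

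Counts of calls depended on the method. The 67 genes past the threshold became 318 with DESeq2, 799 with no filter, 23 with at least 1 CPM in 2 libraries and 312 with the likelihood ratio test, and 99 to 299 when 1 mouse was left out. Of these the 50 lower genes became 186, 496, 18 and 198 in the same order, and 74 to 172. Members past the threshold were 2, 3, 1 and 3, and 1 to 2. Other ester hydrolases were 3, 10, 0 and 2, and 2 to 4. Drug enzymes were 1, 3, 1 and 2, and 2 to 3. Nuclear receptors and regulators were 0, 2, 0 and 0, and 0 to 1. The causes were not tested.

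The replicate numbers in the labels name different mice. The mice were littermates, but the sources used here do not say which mouse shared a litter with which. The deviations of same-numbered mice correlated at 0.066, and the numbers were not taken as a pairing. With the number as a replicate block, 186 genes passed, 136 of them lower, with 2 members and 2 drug enzymes among them, and Ces2c stood at -4.21. The few counts of Ces1f, Ces2b and Ces2g in some mice limit what their values can show.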
